A study of Mus musculus with 29 samples.

Results

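Left ventricle (LV) from wild-type (WT) mice was compared between Middle Age (MA, 12 months) and the Young group (10 weeks). The samples were chosen by their labels alone, as the WT left ventricles labelled MA, of which there were 4, and Young, of which there were 5, so 9 of the 29 arrays of the series. All WT mice were C57BL/6N females on normal chow, perfused with phosphate-buffered saline, and each sample was hybridised to 1 array of an Illumina MouseWG-6 BeadChip, where beads carrying a probe shine more brightly the more of its transcript is bound. Beside them, the same step in age was read in Rage-/- females of the same labelled strain, which lack RAGE, a cell-surface receptor of glycated proteins and other ligands, from 4 MA and 5 Young mice. Levels in 5 Old WT and 6 Old Rage-/- mice (21 months) are given as values, and all 6 groups entered the fit. The mice are of 1 sex and 1 inbred strain, and samples of different ages are different mice.

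Between these ages a mouse passes from early adulthood to mid-life. Tissue that is not infected still holds a low level of interferon-induced transcripts. Type I and type II interferons act through JAK kinases and the transcription factors these activate, and together with IRF factors they switch on antiviral effectors, immunity-related GTPases and the class I antigen-presentation machinery. In heart muscle, fatty acids are the main fuel, with glucose and ketone bodies as alternatives.

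The mean level of 10 measured cardiomyocyte markers, such as *Myl2* and *Myl3*, the ventricular myosin light chains, was between 13.33 and 13.47 in MA WT hearts and between 13.27 and 13.51 in Young WT hearts, on the log2 intensity scale used for all levels here. None of 10 markers of B and plasma cells passed the filter on dim probes. Atrial markers varied widely between mice within both ages, with a mean over 7 genes of 7.35 in MA mouse 4 against 9.27 to 9.79 in the other MA mice, and of 7.13 in Young mouse 1 against 9.0 to 10.26 in the other Young mice. Fewer cells of a type and less RNA per cell cannot be told apart in whole tissue.

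The layout of the arrays limits every result. All 4 MA WT arrays lay on 1 BeadChip with 2 Young Rage-/- arrays, 4 Young WT arrays lay on a second with 2 other Young Rage-/- arrays, and the fifth Young WT array lay on another. No BeadChip held both ages of WT, so within-BeadChip values of the WT step cannot be had, and the BeadChip enters only as a block that links the ages through the Young Rage-/- arrays. From 9629 to 11589 probes were detected per array in MA WT and 10302 to 13676 in Young WT, and the median raw intensity was 136.2 to 144.6 in MA WT and 107.7 to 141.9 in Young WT. Replicate arrays correlated at 0.918 to 0.960 in MA WT and 0.929 to 0.980 in Young WT.

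Of 13277 probes tested, 239 (1.8%) were called at an adjusted p under 0.05 between MA and Young WT hearts, 92 higher and 147 lower in MA. The p values are from limma, two-sided and Benjamini-Hochberg adjusted over all probes, in a model with the 6 groups and 5 surrogate variables that stand for unwanted variation. With each gene given by its brightest probe, 67 of 8189 genes (0.818%) were higher and 80 (0.977%) were lower. Of these 147 genes, 33 had more than 1 probe, and in 7 of them not all probes had the same sign. The median fitted difference was 0.83 over the genes called higher and -0.93 over those called lower, on the log2 scale, against -0.00432 over all genes. In 41 of the higher and 42 of the lower genes the MA mice did not overlap the Young mice, against a background of 164 genes (2%) with all MA mice above and 188 (2.3%) with all MA mice below.

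With the BeadChip as a fixed block in place of the surrogate variables, 67 of the 67 higher and 79 of the 80 lower genes kept their sign, with medians of 1.07 and -1.02, but 6 and 2 of them were still called. With the BeadChip as a random block 5 and 8 were. The probes called in all were 12 and 16. Age and BeadChip cannot be fully told apart in the WT step, as the ages are linked only through the Young Rage-/- arrays. Of the genes described below, *Sh3gl2*, *Cds1*, *Bdh1*, *Scn4b* and *Irgm2* were called with the fixed block. Without Young Rage-/- mouse 4, which had the fewest detected probes (9344) of the 5 Young Rage-/- arrays that link the BeadChips, no probe was called with the fixed block, an alternative chosen after seeing the data.

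**Figure D1:**
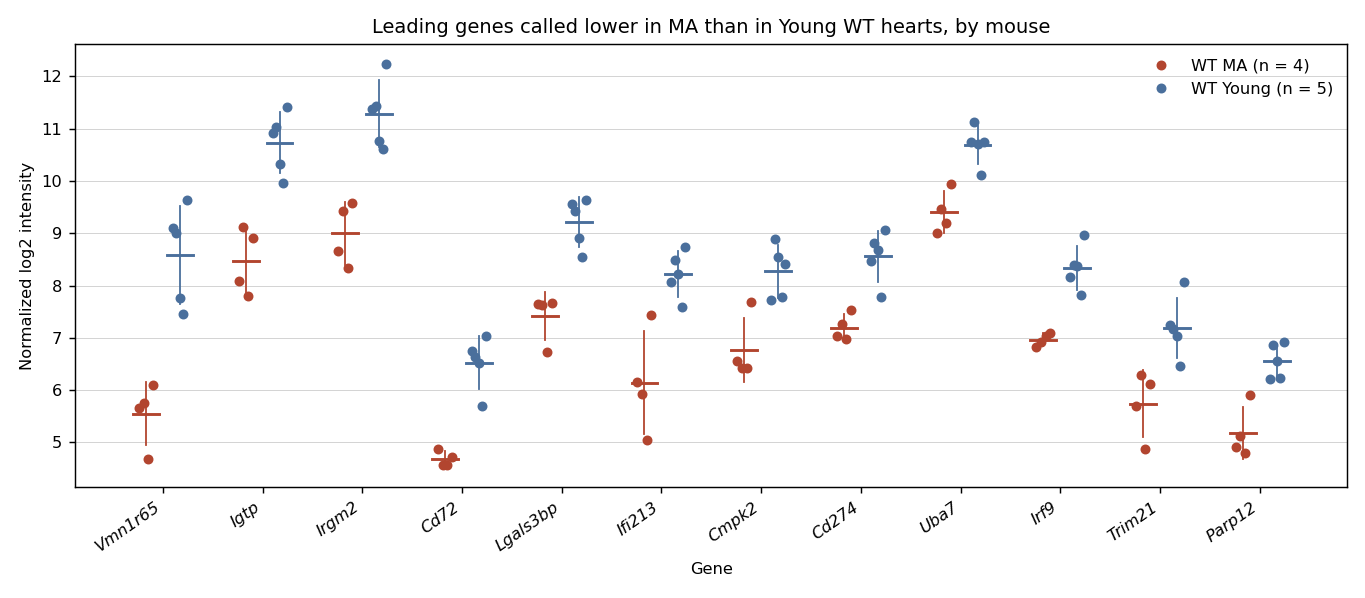
Normalized log2 intensity (vertical axis) of the 12 genes with the largest negative difference among those called lower without overlap, with MA WT mice left of Young WT mice. Points are mice, horizontal bars are means and vertical bars are ± 1 SD. For *Irgm2* the MA mice sit between 8.33 and 9.58 and the Young mice between 10.61 and 12.24.

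Of the 80 genes called lower in MA WT hearts, 22 belonged to the 4 interferon and class I lists, which held 64 measured genes. Of all 147 called genes, 35 belonged to any list. The lists were chosen with earlier results of these data known. Immunity-related GTPases, which act on the vacuoles of intracellular pathogens, were in the list with the most negative median among those with at least 3 measured members. Of 6 measured members of the list of these GTPases and the guanylate-binding proteins, 3 were called lower and none higher, with a median difference of -1.27. Over all genes 0.977% were called lower.

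Several of these genes carry the core of the interferon-stimulated response element, the sequence bound by IRF-containing complexes, close to their start. The stretches below are shown because they belong to genes called lower and hold that core, searched as TTTCNNTTT on both strands and set in capitals, overlapping matches included. A match on the opposite strand reads in its reverse complement. They are from RefSeq (GRCm38.p6), each read 5′ to 3′ on the gene's own strand and ending at or before its start. *Irgm2* is at chr11:58214889-58214948 and *Igtp* at chr11:58199496-58199555, both on the plus strand. *Irgm1*, with 2 overlapping matches, is at chr11:48871421-48871480 on the minus strand. *Uba7* is at chr9:107975507-107975566 and *Ifit3* at chr19:34583382-34583441, both on the plus strand. *Lgals3bp* is at chr11:118401960-118402019 on the minus strand.
Irgm2: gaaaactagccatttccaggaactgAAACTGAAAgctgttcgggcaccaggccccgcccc
Igtp: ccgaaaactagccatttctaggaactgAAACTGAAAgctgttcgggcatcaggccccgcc
Irgm1: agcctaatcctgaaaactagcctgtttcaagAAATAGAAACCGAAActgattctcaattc
Uba7: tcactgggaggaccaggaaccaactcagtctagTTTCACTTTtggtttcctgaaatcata
Ifit3: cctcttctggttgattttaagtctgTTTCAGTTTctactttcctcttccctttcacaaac
Lgals3bp: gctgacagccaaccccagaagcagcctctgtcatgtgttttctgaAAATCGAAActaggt

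In windows reaching from 250 bases before to 50 bases after the start, the core was found in 20 of the 60 genes called lower that have a window (33.3%), in 5 of the 55 called higher (9.09%) and in 639 of 6678 measured genes (9.57%). It was in 12.1% of all 27025 genes of the promoter table. All 6 measured GTPases held it, as did 9 of 16 interferon-induced effectors. Of 16 interferon receptors and regulators, 2 held it (12.5%), and of 15 class I genes, 3 did (20%). These matches describe the sequence and are not binding sites shown to be used here.

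*Irgm2*, an immunity-related GTPase, had levels of 8.66, 9.43, 8.33 and 9.58 in the MA WT mice, against 11.38, 11.44, 10.77, 10.61 and 12.24 in the Young WT mice. The groups did not overlap. The fitted difference was -2.14 ± 0.26 (SE), 0.226 times the Young level (limma adjusted p = 6.98e-05, and 0.034 with the BeadChip as a fixed block). *Igtp*, its neighbour on chromosome 11 and also known as Irgm3, had levels of 8.08, 9.12, 7.80 and 8.91 in MA and 10.92, 11.03, 10.32, 9.96 and 11.42 in Young mice. The order was the same, every MA mouse below every Young mouse, with a difference of -2.21 ± 0.31 (limma adjusted p = 0.000346). *Irgm1* was bright in both groups, at 10.89, 11.48, 11.40 and 11.45 in MA and 12.04, 12.13, 11.95, 11.54 and 11.91 in Young mice, and its difference was smaller, -0.70 ± 0.13 (limma adjusted p = 0.00639). The members *Gbp2*, *Gbp3* and *Gbp7* had differences of -0.78, -1.27 and -1.28 and were not called.

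Among the antiviral effectors the same direction held throughout. Of 22 measured genes on the list, 22 had a difference below 0, 22 had an unadjusted p under 0.05 and 13 were called lower. Over all 13277 probes tested, 2134 had an unadjusted p under 0.05. The list median was -1.08, and -0.995 with the fixed block. *Ifit3*, an RNA-binding protein of the IFIT complex, had levels of 8.11, 8.40, 7.69 and 9.48 in MA and 9.41, 10.47, 10.41, 9.28 and 10.63 in Young mice. MA mouse 4 was above the 2 lowest Young mice and the other MA mice were below all of them. Its difference was -1.61 ± 0.31 (limma adjusted p = 0.00584). *Cmpk2*, a mitochondrial nucleotide kinase, had 6.57, 6.42, 6.42 and 7.69 in MA and 7.73, 8.89, 8.55, 7.78 and 8.41 in Young mice, a difference of -1.41 ± 0.28 (limma adjusted p = 0.00917). The groups of *Cmpk2* did not overlap, but MA mouse 4 lay close below the lowest Young mouse.

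MA mouse 4 and Young mouse 4 stood closest to the other age across this list. The mean level over the 22 genes was 7.18, 7.37, 7.14 and 8.12 in the MA mice and 8.47, 8.93, 8.80, 7.96 and 8.84 in the Young mice, so MA mouse 4 lay above Young mouse 4. *Isg15*, the ubiquitin-like modifier that is joined to proteins during the response, had 6.59, 5.75, 5.96 and 7.70 in MA and 7.59, 8.61, 8.49, 7.37 and 8.43 in Young mice (difference -1.43, limma adjusted p = 0.0241). Its enzymes moved with it. *Uba7*, which activates ISG15, had 9.01, 9.46, 9.19 and 9.94 in MA and 10.74, 11.12, 10.71, 10.12 and 10.74 in Young mice, without overlap (difference -1.32 ± 0.20, limma adjusted p = 0.000795), and *Usp18*, which removes ISG15, had a difference of -1.66 (limma adjusted p = 0.0116). *Ifi27l2a* (-1.45), *Ifit2* (-1.37), *Oas1g* (-1.34), *Oas2* (-1.23), *Mx2* (-1.08), *Parp14* (-1.07), *Rsad2* (-1.02), *Dtx3l* (-0.93) and *Eif2ak2* (-0.92), an RNA-activated kinase that halts translation, were also called lower. *Isg15*, *Usp18* and this last group other than *Ifit2* and *Parp14* were named after their values were seen. In MA mice 2 and 3 *Isg15*, and in MA mice 1, 2 and 3 *Mx2*, lay below the lowest level that counted as detected on the array.

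The receptors and kinases that start the pathway did not follow. Of 17 measured interferon receptors and regulators, 5 were called lower and none higher, with a median of -0.11. The 5 were *Nlrc5*, *Irf9*, *Irf7*, *Irf1* and *Stat2*, transcriptional regulators that interferon itself induces. *Irf9*, an interferon regulatory factor that binds DNA, had 6.82, 6.93, 7.04 and 7.09 in MA and 8.16, 8.40, 8.37, 7.82 and 8.97 in Young mice. The MA mice lay close together and below every Young mouse, with a difference of -1.30 ± 0.24 (limma adjusted p = 0.00479). *Irf1* gave 9.53, 10.00, 9.65 and 9.89 in MA and 10.60, 10.69, 10.65, 10.57 and 10.83 in Young mice, also without overlap (difference -0.81 ± 0.16, limma adjusted p = 0.0068). *Ifnar2* (-0.11), *Ifngr1* (0.44), *Ifngr2* (-0.09), *Jak1* (-0.31), *Jak2* (0.34) and *Tyk2* (0.19) were not called.

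*Nlrc5*, the transactivator of class I genes, had levels of 4.72, 4.78, 4.46 and 5.94 in MA and 7.43, 7.09, 6.65, 5.84 and 7.96 in Young mice, a difference of -1.66 ± 0.24 (limma adjusted p = 0.000533). It was detected in 1 of 4 MA mice and 5 of 5 Young mice, and MA mouse 4 and Young mouse 4 crossed. Of 19 class I presentation genes, only *H2-Q5* was called, with 8.73, 8.93, 8.27 and 8.87 in MA and 9.73, 9.39, 9.52, 9.07 and 10.37 in Young mice (difference -0.73 ± 0.17, limma adjusted p = 0.0258). The list median was -0.445 and fell in size to -0.16 with the fixed block. *B2m* (-0.52), *H2-D1* (-0.54), *Psmb8* (-0.85) and *Psmb9* (-0.74) were not called. Among 9 class II genes none was called, and *H2-Ab1* had a difference of -0.02.

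Some immune genes outside the effector list were called lower as well. *Cd274*, which encodes the checkpoint ligand PD-L1, had 7.03, 7.26, 6.97 and 7.54 in MA and 8.46, 8.81, 8.68, 7.78 and 9.06 in Young mice, without overlap (difference -1.36 ± 0.25, limma adjusted p = 0.00456). *Lgals3bp*, a secreted galectin-binding glycoprotein, had 7.65, 7.63, 6.72 and 7.66 in MA and 9.57, 9.43, 8.91, 8.54 and 9.63 in Young mice. The groups did not overlap, and the difference was -1.68 ± 0.23 (limma adjusted p = 0.000341). *Trim21*, a cytosolic antibody receptor (-1.17), *Parp12* (-1.16) and *Ifi213*, of the family of DNA sensors with a pyrin domain (-1.50), had no overlap either. The call of *Parp12* was lost without MA mouse 1 or Young mouse 2, with adjusted p up to 0.07.

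*Vmn1r65*, a gene of the vomeronasal pheromone receptors, showed the largest negative difference, with 5.66, 5.75, 4.69 and 6.10 in MA and 9.10, 9.01, 7.76, 7.45 and 9.64 in Young mice. It was detected in 2 of the MA mice and in all Young mice, and the difference was -2.71 ± 0.27, 0.153 times the Young level (limma adjusted p = 4.12e-06). A receptor of this kind belongs to a large family of similar sequences, and which transcript its probe read in heart was not tested. *Cd72*, a receptor of B cells, was detected in none of the MA mice (4.56 to 4.87) and in 4 of the Young mice (5.69 to 7.04). Where every array of a group was below detection, a bound was taken against the lowest level that counted as detected. By it *Cd72* was at least 1.54-fold lower in MA (limma adjusted p = 6.98e-05), and the bound ran from 1.41 to 1.78 with 1 mouse left out. No B-cell marker passed the dim-probe filter in these hearts.

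*Tie1*, a receptor kinase of endothelial cells, was also detected in no MA mouse (4.66 to 5.46) and in 4 of 5 Young mice (5.90 to 7.05). It was at least 1.42-fold lower (limma adjusted p = 0.00373), a bound that ran from 1.27 to 1.55 with 1 mouse left out. It was the only called gene among 10 endothelial markers, whose median was -0.0955, and *Pecam1* (-0.08) and *Cdh5* (-0.03) were not called. Among matrix genes, *Lama2*, the laminin α2 chain that anchors muscle fibres, was called lower with 6.80, 5.65, 5.66 and 4.97 in MA and 6.72, 6.93, 6.75, 7.02 and 7.67 in Young mice (difference -0.99 ± 0.22, limma adjusted p = 0.0208). MA mouse 1 overlapped the Young mice, and the call was lost without MA mouse 4, Young mouse 1 or Young mouse 2 (adjusted p up to 0.0948). For *Lama2*, MA mice 2, 3 and 4 lay below the lowest detected level of their arrays, so the size of its difference partly reflects background. *Itgav*, the αv integrin (-0.73, limma adjusted p = 0.0135) and *Igf1r*, the receptor of insulin-like growth factor I (-0.81, limma adjusted p = 0.0208), were called lower with overlapping groups. The call of *Itgav* was lost without MA mouse 3 or 4, and that of *Igf1r* without MA mouse 1 or 4 or Young mouse 2 or 3.

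Of 10 measured complement genes 1 was called, lower, 7 were below 0 and the median was -0.304. At an unadjusted p under 0.05, 5 were lower and 1 was higher, against 2134 of all 13277 probes in either direction. *Cfp*, properdin, which stabilises the alternative-pathway convertase, had 8.34, 8.58, 8.58 and 8.27 in MA and 9.94, 9.46, 8.99, 8.71 and 9.47 in Young mice, without overlap (difference -0.80 ± 0.19, limma adjusted p = 0.0258). Its call was lost without MA mouse 1 or 4 or Young mouse 1 or 2. The 3 chains of C1q, *C1qa* (-0.91), *C1qb* (-0.40) and *C1qc* (-0.69), also had all MA mice below all Young mice but were not called. Over all genes 2.3% had that order. Over 8 macrophage markers, one of which is *C1qa*, the summed level as a mean was 7.57 to 7.98 in MA and 7.91 to 8.60 in Young mice, 8 of 8 differences were below 0 with a median of -0.228, and none was called. The part of macrophage content in the immune genes was not tested.

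**Figure D2:**
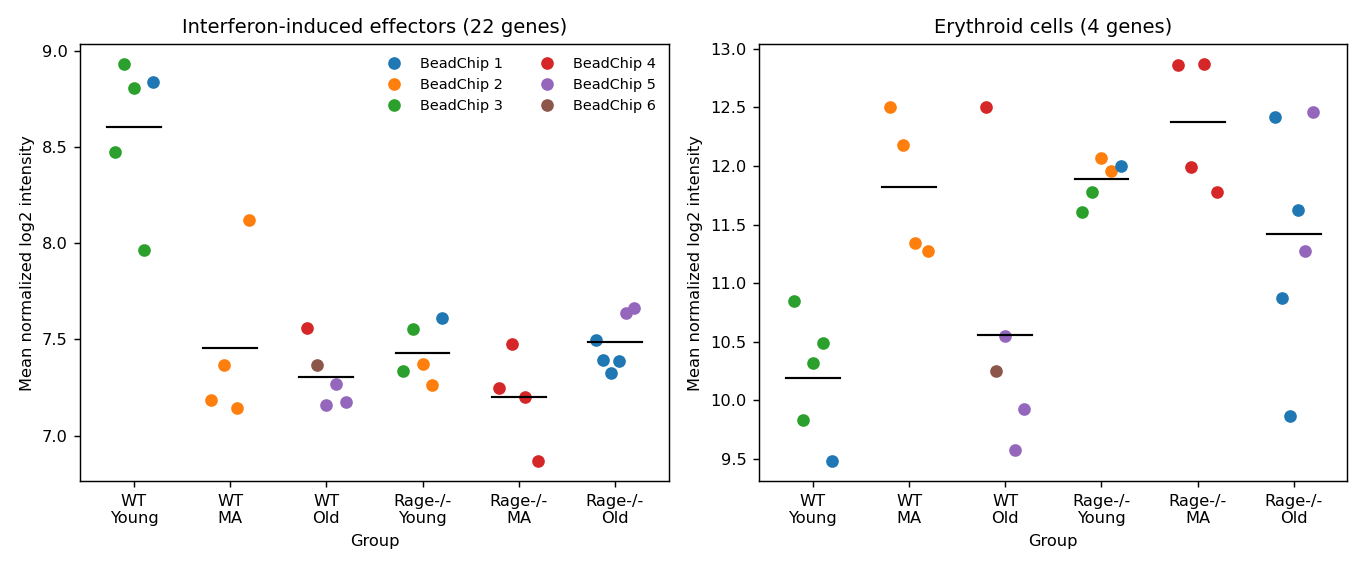
Mean normalized log2 intensity per array (vertical axis) of 22 interferon-induced effectors (left) and of 4 erythroid genes (right) in the 6 groups, coloured by BeadChip, with the group mean as a bar. Young WT hearts have the highest effector mean, 8.60, and all other groups lie between 7.20 and 7.49.

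Of the 6 groups, Young WT hearts had the highest mean effector level. The effector mean was 8.60 ± 0.40 in Young WT, 7.45 ± 0.45 in MA WT and 7.31 ± 0.17 in Old WT (SD, n = 5, 4 and 5), and in Rage-/- hearts it was 7.43 ± 0.15 in Young, 7.20 ± 0.25 in MA and 7.49 ± 0.14 in Old (n = 5, 4 and 6). On the BeadChip that held the MA WT arrays, the MA WT mean was 0.136 above that of the 2 Young Rage-/- arrays beside them. On the BeadChip that held 4 Young WT arrays, their mean was 1.10 above that of the 2 Young Rage-/- arrays there. The corresponding gaps were 0.27 for MA WT and 1.54 for Young WT over the GTPases, and 0.0682 for MA WT and 0.423 for Young WT over the receptors and regulators. On these 2 BeadChips the gap of class I genes was not larger for Young WT, at 0.234 for MA WT and 0.177 for Young WT. Nor was that of macrophage markers, at 0.234 for MA WT and 0.19 for Young WT. The fifth Young WT array had 1 Young Rage-/- array on its BeadChip. Its class I mean was 8.84, against 7.90 there, and its macrophage mean was 8.60, against 8.03. The effector means of that pair were 8.84 and 7.61. For the effectors, each of the 4 Young WT arrays lay above both Young Rage-/- arrays of its BeadChip, as did MA WT mouse 4 (8.12, against 7.26 and 7.37) but not MA WT mice 1, 2 and 3. For the GTPases, MA WT mice 2 and 4 (8.99 and 9.15) also lay above the Young Rage-/- arrays beside them (8.04 and 8.43).

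**Figure D3:**
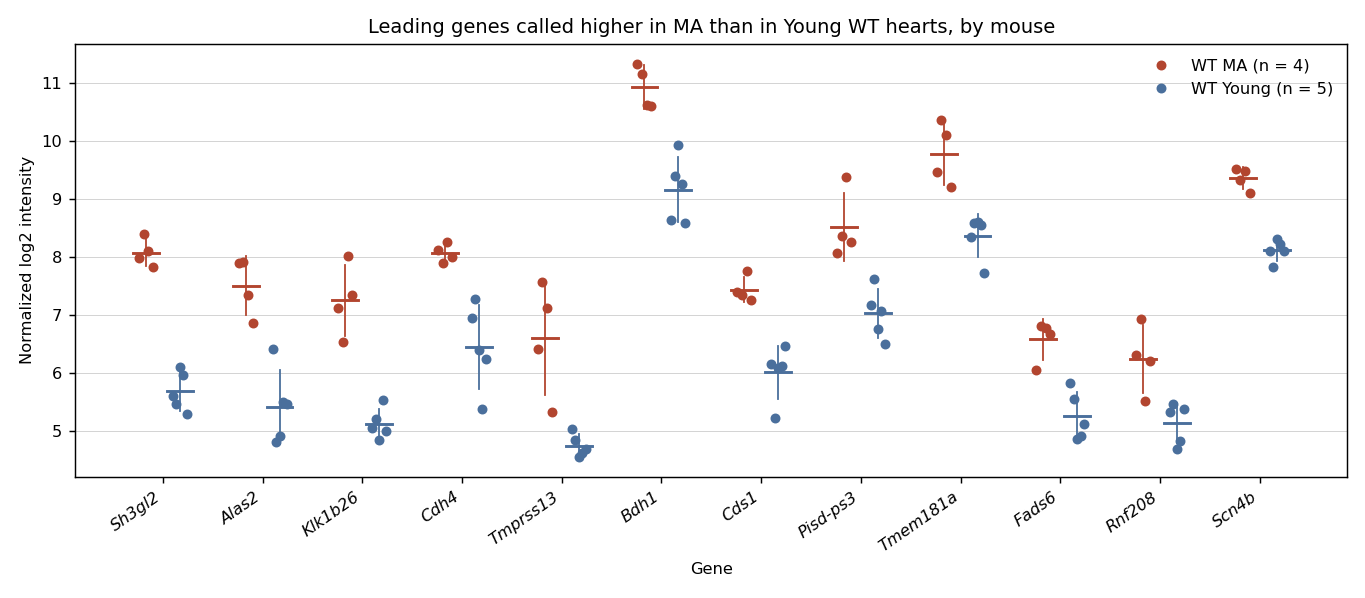
Normalized log2 intensity (vertical axis) of the 12 genes with the largest positive difference among those called higher without overlap, with MA WT mice left of Young WT mice. Points are mice, horizontal bars are means and vertical bars are ± 1 SD. For *Sh3gl2* the MA mice sit between 7.83 and 8.39 and the Young mice between 5.29 and 6.11.

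The next genes were higher in MA WT hearts, and how much they share was not measured. *Sh3gl2*, endophilin A1, which bends membranes during endocytosis and is known best from synapses, had the smallest p of all genes. Its levels were 7.98, 8.39, 8.10 and 7.83 in MA and 5.62, 5.47, 6.11, 5.97 and 5.29 in Young mice, with a wide gap between the groups. The difference was 2.44 ± 0.20, or 5.44-fold (limma adjusted p = 2.81e-07, and 0.00266 with the fixed block). Old WT mice averaged 7.60.

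*Bdh1*, the mitochondrial enzyme that interconverts the ketone bodies β-hydroxybutyrate and acetoacetate, had 11.33, 11.16, 10.61 and 10.61 in MA and 8.63, 9.39, 9.92, 9.26 and 8.58 in Young mice. Every MA mouse was above every Young mouse, and the difference was 1.65 ± 0.21, or 3.14-fold (limma adjusted p = 0.000103, and 0.0242 with the fixed block). *Bdh1* was the only called gene of 25 in the list of PPAR targets and ketone and triglyceride turnover, whose median was 0.025. *Oxct1*, which follows it in ketone oxidation, had a difference of 0.06. *Cds1*, CDP-diacylglycerol synthase, which feeds phosphatidylinositol synthesis, had 7.40, 7.35, 7.76 and 7.26 in MA and 6.16, 5.24, 6.09, 6.12 and 6.46 in Young mice, also without overlap (difference 1.58 ± 0.22, limma adjusted p = 0.000341). *Fads6*, of the fatty acid desaturases, had 6.06, 6.81, 6.77 and 6.68 in MA and 5.83, 5.55, 4.88, 4.91 and 5.13 in Young mice (difference 1.28 ± 0.23, limma adjusted p = 0.00414), and its difference was 0.43 with the fixed block. For *Fads6*, Young mice 2, 3, 4 and 5 lay below the lowest detected level of their arrays, so the size of its difference partly reflects background.

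*Scn4b*, the β4 subunit of the voltage-gated sodium channel, had 9.52, 9.33, 9.49 and 9.10 in MA and 8.11, 7.84, 8.32, 8.23 and 8.10 in Young mice. The spread within each age was small beside the gap, and the difference was 1.22 ± 0.21, or 2.34-fold (limma adjusted p = 0.00261, and 0.0231 with the fixed block). No gene was called among 22 of calcium handling and excitation, with *Atp2a2*, the calcium pump of the sarcoplasmic reticulum, at -0.02. *Cdh4*, R-cadherin, a cell adhesion molecule, had 8.12, 7.89, 8.25 and 8.0 in MA and 6.95, 7.28, 6.39, 5.39 and 6.24 in Young mice, without overlap (difference 1.78 ± 0.27, limma adjusted p = 0.000731). *Slc25a11*, the mitochondrial carrier of oxoglutarate, chosen after its values were seen, had 11.43, 11.64, 11.28 and 11.44 in MA and 10.96, 10.76, 10.89, 10.91 and 10.92 in Young mice (difference 0.51 ± 0.10, limma adjusted p = 0.00772).

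Of 2 serine proteases, *Klk1b26*, a kallikrein, was detected in all MA mice (6.53 to 8.03) and no Young mouse (4.86 to 5.54), at least 3.03-fold higher (limma adjusted p = 0.000756). *Tmprss13*, a membrane-bound protease, was detected in 3 of 4 MA mice and in no Young mouse (4.56 to 5.05), at least 1.94-fold higher (limma adjusted p = 0.00772). With 1 mouse left out, the bound ran from 2.54 to 3.58 for *Klk1b26* and from 1.55 to 2.61 for *Tmprss13*. *Pisd-ps3* (1.45), *Tmem181a* (1.38) and *Rnf208* (1.28) were higher without overlap, and *Rnf208* was no longer called without MA mouse 2, Young mouse 3 or Young mouse 4 (adjusted p up to 0.0733). *Pisd-ps3* is annotated as a pseudogene of the phosphatidylserine decarboxylase gene, and *Klk1b26*, *Tmem181a*, *H2-Q5*, *Oas1g* and *Ifi213* belong to groups of near-identical copies, so reads by their probes may include relatives.

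Of 4 measured erythroid transcripts, 1 was called higher in MA hearts. *Alas2*, the first enzyme of haem synthesis in red-cell precursors, had 7.90, 7.92, 7.35 and 6.87 in MA and 6.42, 4.82, 4.92, 5.50 and 5.46 in Young mice, without overlap (difference 2.23 ± 0.525, limma adjusted p = 0.027, lost in 5 of 9 fits with 1 mouse left out, with p up to 0.0966, and with the BeadChip as a fixed or random block, with adjusted p of 0.676 and 0.675). For *Alas2*, Young mice 2, 3 and 4 lay below the lowest detected level of their arrays, so the size of its difference partly reflects background. Of 9 listed erythroid markers these 4 passed the dim-probe filter, and 4 of 4 had all MA mice above all Young mice. Over all 8189 genes, 164 (2%) had that order. The globins *Hba-a1* (1.80), *Hbb-bt* (1.62) and *Hbb-bs* (1.40) were not called. The mean over the 4 genes was 11.27 to 12.50 in MA and 9.48 to 10.85 in Young WT mice, and 11.61 to 12.07 in Young Rage-/- mice. All hearts had been perfused, and the part of residual blood in the WT step was not tested. *Uros* (0.64) and *Slc25a37*, mitoferrin (0.77), genes of haem synthesis and mitochondrial iron import named after their values were seen, were also called higher.

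Immediate early genes, transcription factors induced within minutes of a stimulus, were mostly above 0 but split the MA mice. *Egr1* had 12.37, 10.70, 9.84 and 12.63 in MA and 10.30, 9.70, 9.82, 9.97 and 8.95 in Young mice. MA mice 1 and 4 were high, while MA mouse 3 lay inside the Young range. Its difference was 1.88 ± 0.44 (limma adjusted p = 0.0258), and the call was lost without MA mouse 1 or MA mouse 4 (adjusted p up to 0.0768). *Egr3* had 9.30, 6.07, 4.48 and 9.34 in MA mice, was detected in no Young mouse (4.59 to 5.33) and was at least 3.12-fold higher, a bound that was 1.96-fold without MA mouse 1, 1.95-fold without MA mouse 4 and 5.98-fold without MA mouse 3 (limma adjusted p = 0.0366), with the call lost in 7 of 9 fits with 1 mouse left out (adjusted p up to 0.114). Of 16 measured members 15 were above 0 and 2 were called, with a median of 0.683 that was 0.483 with the fixed block. Over all genes 0.818% were called higher and the median was -0.00432. *Fos* showed the same mice, with 9.54, 6.49, 6.29 and 9.23 in MA and 6.21 to 7.31 in Young mice, and was not called. The neutrophil transcript *S100a8* was at 8.01 and 7.93 in MA mice 1 and 4 and at 5.26 and 5.16 in MA mice 2 and 3, against 5.01 to 6.23 in Young mice.

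**Figure D4:**
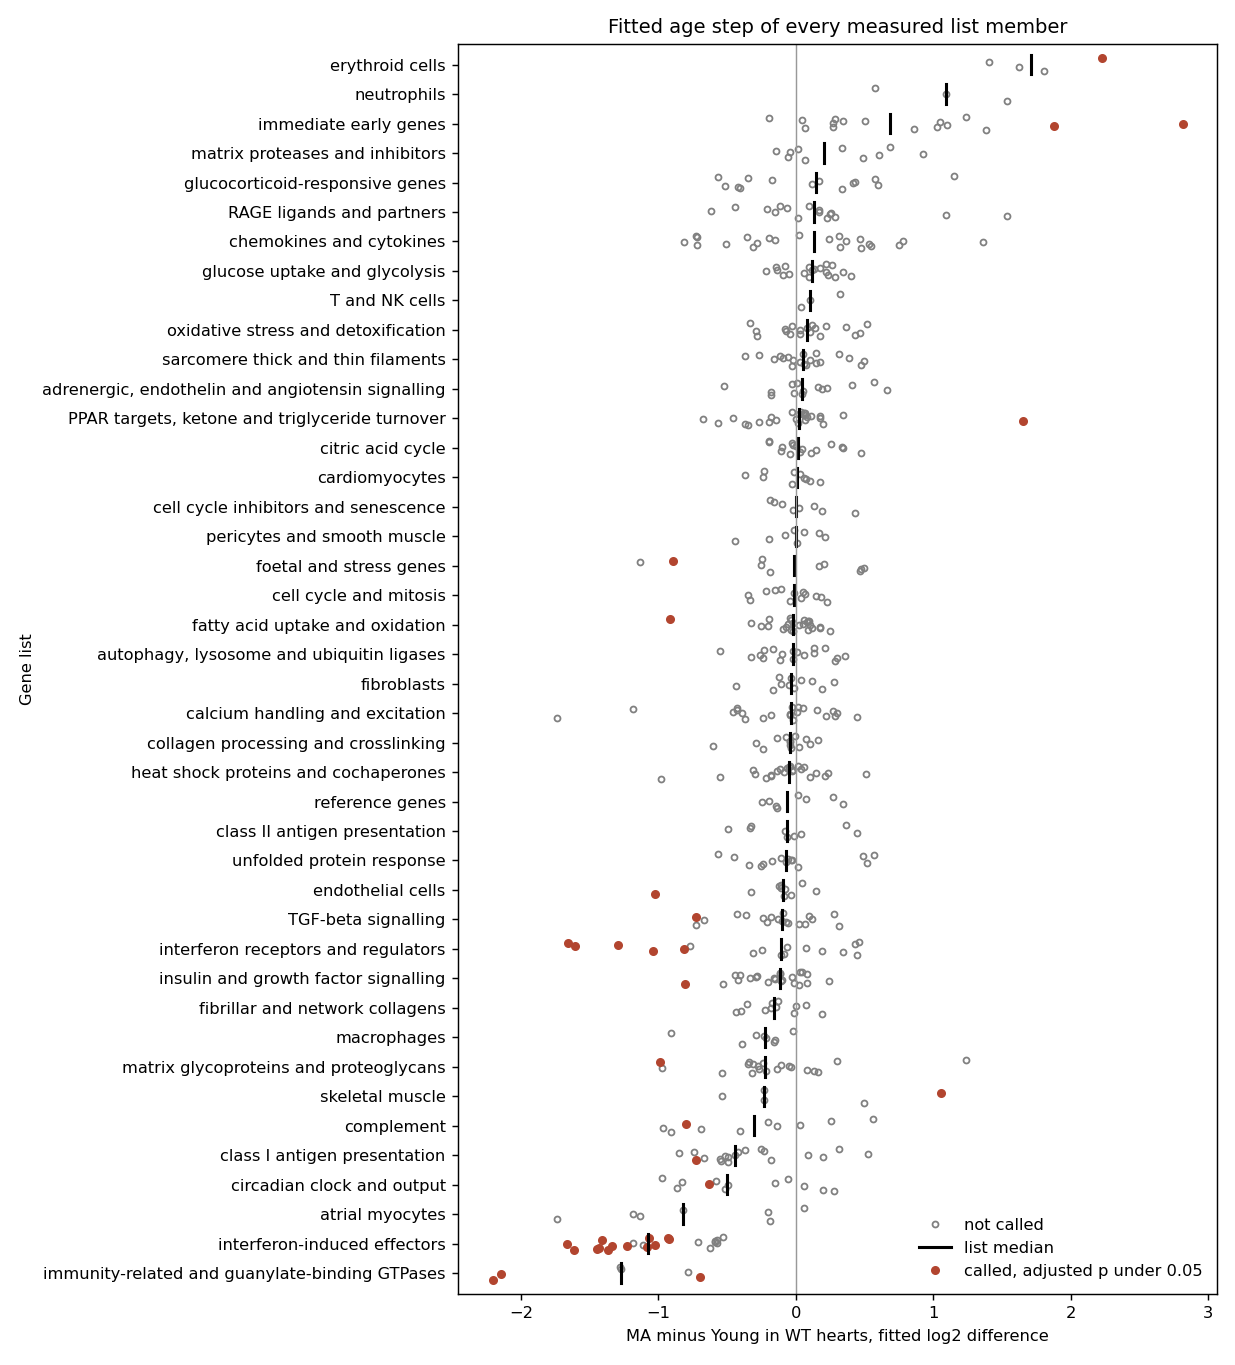
Fitted log2 difference between MA and Young WT hearts (horizontal axis) for each measured member of every list with at least 3 measured members (vertical axis, ordered by median). Filled points are called genes and black bars are list medians, from -1.27 for the GTPases to 1.71 for the erythroid genes.

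Of 45 lists with measured members, 29 held no called gene. Among the others, the mean level per mouse was lower in every MA than in every Young mouse for insulin and growth factor signalling (8.72 to 8.81 in MA and 8.87 to 8.99 in Young mice), TGF-β signalling (7.34 to 7.52 in MA and 7.53 to 7.62 in Young mice) and endothelial markers (9.61 to 9.70 in MA and 9.75 to 10.03 in Young mice). Their median differences were -0.116, -0.101 and -0.0955, and each held 1 called gene. The same order held for the GTPases (7.74 to 9.15 in MA and 9.31 to 10.45 in Young mice). It also held, by a narrow gap, for the interferon receptors and regulators (up to 7.63 in MA and from 7.69 in Young mice) and class I genes (up to 8.125 in MA and from 8.13 in Young mice). Of 20 sarcomere genes none was called (median 0.0537). *Myh6*, the adult myosin heavy chain, had 14.46, 14.70, 14.55 and 14.31 in MA and 14.48, 14.58, 14.44, 14.46 and 14.60 in Young mice, a difference of -0.03 ± 0.17. *Myh7* (0.47), *Nppa* (-0.19), *Nppb* (0.47) and *Acta1* (0.49), genes of the foetal programme that return under load, were not called. *Acta1* had every MA mouse (12.03 to 12.41) just above every Young mouse (11.29 to 12.02), with an adjusted p of 0.258 by limma. *Mybpc2*, fast skeletal myosin-binding protein C, was the called member of that list, with 6.68, 6.75, 7.57 and 7.38 in MA and 7.63, 7.98, 8.12, 7.95 and 7.82 in Young mice (difference -0.89 ± 0.19, limma adjusted p = 0.0112).

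No collagen was called. Of 12 fibrillar and network collagens the median was -0.157, with *Col1a1* at 0.19 ± 0.40 and *Col3a1* at -0.44 ± 0.34, both dim in these arrays, and *Col4a1* at -0.40 ± 0.21. None of 14 genes of collagen processing, 10 of matrix proteases and their inhibitors and 11 fibroblast markers was called. The list of proteases and inhibitors had a median of 0.201, and 0.452 with the fixed block. At an unadjusted p under 0.05 by limma, 4 of its members were higher and none lower, against 2134 of all 13277 probes in either direction. *Timp1*, an inhibitor of metalloproteinases named after its values were seen, had all MA mice (7.03 to 7.91) above all Young mice (6.38 to 6.73) without passing the adjusted threshold (difference 0.92, limma adjusted p = 0.122). Of 8 senescence genes none was called. *Cdkn1a*, the p21 inhibitor of the cell cycle, had 7.99, 8.28, 8.18 and 8.27 in MA and 7.87, 7.33, 8.13, 7.45 and 7.62 in Young mice (difference 0.43 ± 0.33, limma adjusted p = 0.56). *Cdkn2a* and *Ager* had no named probe that passed the filter on dim probes.

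Fuel genes stayed level as groups. Of 25 genes of fatty acid uptake and oxidation only *Acot1*, a cytosolic acyl-CoA thioesterase, was called, with 8.79, 8.58, 9.36 and 9.31 in MA and 9.77, 9.34, 9.84, 10.20 and 10.67 in Young mice (difference -0.92 ± 0.24, limma adjusted p = 0.0482, lost in 6 of 9 fits with 1 mouse left out). No gene of 19 in glucose uptake and glycolysis and 16 of the citric acid cycle was called. The reference genes *Hprt* (-0.14) and *Ldha* (-0.15) were not called.

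Among 12 clock genes, *Nr1d2*, a repressor of the clock loop, was called lower with 7.58, 7.85, 8.16 and 8.15 in MA and 8.79, 8.49, 8.56, 8.85 and 8.82 in Young mice. The groups did not overlap, but the difference of -0.63 ± 0.17 (limma adjusted p = 0.0488) was lost in 8 of 9 fits with 1 mouse left out. The list median was -0.505, *Dbp* (-0.83), *Ciart* (-0.98) and *Per2* (-0.87) were not called, and times of dissection are not given in the sources used here. *Pvalb*, the calcium buffer parvalbumin, a skeletal muscle marker, was called higher (1.06, limma adjusted p = 0.0239, lost in 5 of 9 fits with 1 mouse left out), with 5.88 to 6.56 in MA and 4.62 to 5.48 in Young mice. The other 4 measured skeletal muscle markers were not called.

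**Figure D5:**
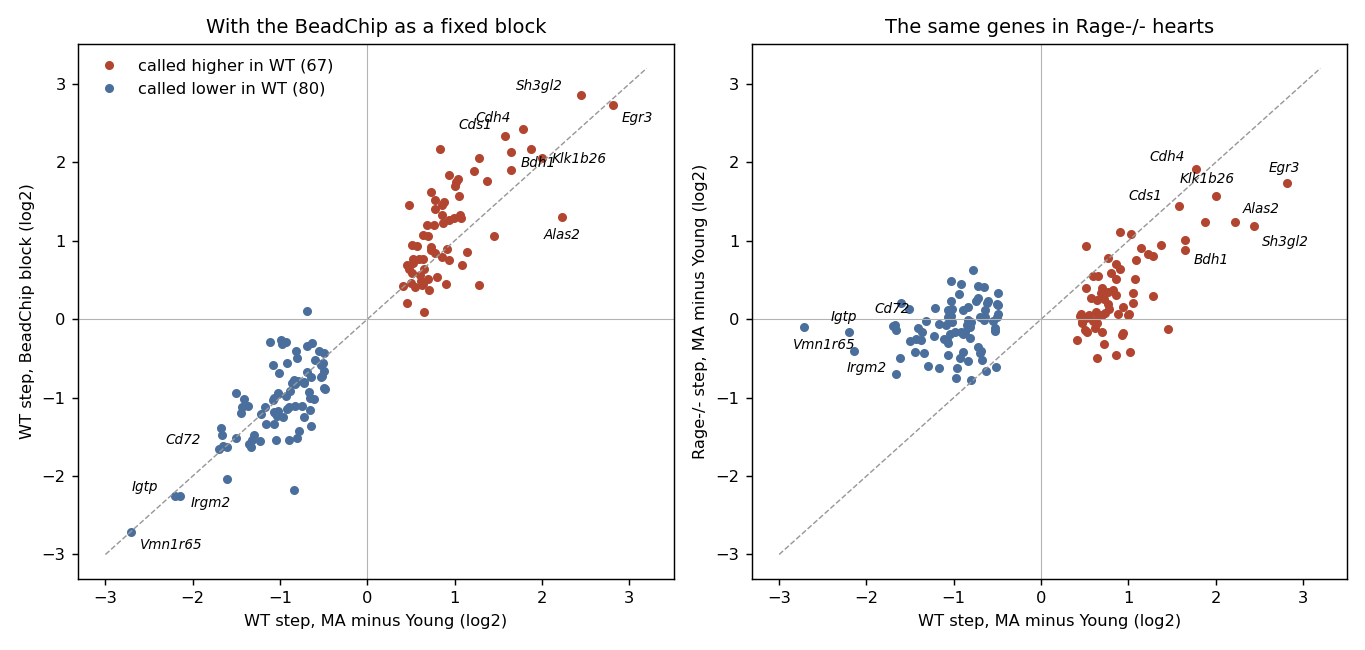
Fitted WT step, MA minus Young (horizontal axis, log2), of the 147 called genes against the WT step with the BeadChip as a fixed block (left) and against the MA minus Young step in Rage-/- hearts (right). The dashed line marks equal values. In Rage-/- hearts the median was 0.265 over the genes higher in WT and -0.0963 over those lower in WT.

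In Rage-/- hearts the step from Young to MA called 239 probes as well, and 82 genes (1%) were higher and 70 (0.855%) lower. Of the 67 genes higher in WT, 13 were also called higher in Rage-/- (19.4% of the WT list and 15.9% of the Rage-/- list). Of the 80 lower in WT, 1 was also called lower (1.25% of the WT list and 1.43% of the Rage-/- list). The sign was the same in 51 of 67 and 52 of 80, while 47.5% of all genes were above 0 in Rage-/-. The Rage-/- step has its own Young and MA mice, but all its MA arrays lay on 1 BeadChip that held no Young array.

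The genes called in both genotypes were led by *Cdh4* (1.78 in WT and 1.92 in Rage-/-), *Cds1* (1.58 and 1.45), *Sh3gl2* (2.44 and 1.18), *Gsta1*, a glutathione transferase (1.03 and 1.08), *Skap2*, an adaptor of Src kinases (0.77 and 0.78), and *Klk1b26* (2.01 and 1.57). For *Gsta1* the WT levels were 7.69, 6.99, 7.47 and 7.40 in MA and 6.77, 6.96, 6.41, 6.24 and 6.38 in Young mice. Both *Gsta1* and *Skap2* were without overlap in WT, though MA mouse 2 and Young mouse 2 were almost level for *Gsta1*.

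The difference of the step between genotypes was called for 21 genes (0.256%), 11 of them called in WT, 8 lower and 3 higher. These calls depended on the model: 35 probes were called for this difference, against 1 with the BeadChip as a fixed block, 0 with it as a random block, 1 without surrogate variables and 0 in the compared arrays only. *Vmn1r65* (-2.71 in WT and -0.10 in Rage-/-) had a difference between the steps of -2.61 (limma adjusted p = 0.0147). *Cd72* (-1.61, limma adjusted p = 0.0264), *Lgals3bp* (-1.61, limma adjusted p = 0.0468), *Tie1* (-1.51, limma adjusted p = 0.0243) and *H2-Q5* (-1.15, limma adjusted p = 0.0468) also passed. *Igtp* (-2.05, limma adjusted p = 0.0546) and *Irgm2* (-1.74, limma adjusted p = 0.0508) came close and were not called, and no gene of the effector list was. The effector median was -1.08 in WT and -0.256 in Rage-/-. *Nppb*, the B-type natriuretic peptide gene, had 0.47 in WT and 2.26 in Rage-/-, and *Cdkn1a* 0.43 and 2.15, both called only in Rage-/-, but the differences between the steps were not called (limma adjusted p = 0.0767 and 0.103). *P2ry1*, a purinergic receptor (0.57 in WT and -0.88 in Rage-/-), *Lypd2* (0.29 and -0.97), *Akap1*, a mitochondrial anchor of protein kinase A (-0.29 and 0.73), and *Ankrd23*, a stretch-responsive ankyrin-repeat protein (0.10 and 1.61), passed the test of the difference (limma adjusted p = 0.0243 for each) without being called in WT.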

How the data were processed

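RNA of left ventricles was read on Illumina BeadChips. The authors exported 1 mean bead intensity per probe and array with GenomeStudio 2011.1 and deposited it without correction, next to a detection p-value column that, as deposited, rises with signal and holds 1 minus the p-value. Their deposited log2 values (variance-stabilizing transformation and robust spline in lumi) served as an alternative.

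Intensities were background-corrected, quantile-normalized and put on the log2 scale with neqc of limma 3.58.1 (R 4.3.3, offset 16), over 29 arrays. The 13277 of 45281 probes detected (p below 0.01) on 25% or more of the arrays were kept, and 11504 had 1 gene name, 6 several and 1767 none. Limma fitted 6 groups and 5 surrogate variables, estimated in 5 reweighting rounds, with Benjamini-Hochberg adjustment and a threshold of 0.05. The fitted difference can differ from that of the printed means because of these variables. Where some mice of a group lay below detection, the size of a fitted difference partly reflects background. The number of arrays limits the precision. Labels do not say that samples were pooled.

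Named were the 12 largest differences without overlap in each direction, up to 4 called members per list (else the brightest 2), a fixed set of heart genes, and the 6 smallest p for genes shared between genotypes and for the difference between them. Other genes were named after their values were seen. The members and lists were chosen with earlier results of these data known. The fits were tested on simulated data. For the fit with surrogate variables these held no BeadChip effect, so they cannot speak to the part of the BeadChip in its calls. Alternatives changed the normalization, surrogate variables, BeadChip, filter and mice.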

Additional observations from a re-analysis of the deposited data

Results flagged for a closer look

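In 118 groups tested over 59 named genes, 6 held a mouse that stood far from the rest of its group, and chance flags about 1 in 20 such groups. *Fads6* was low in MA WT mouse 1 (6.06), *Lgals3bp* was low in MA WT mouse 3 (6.72), *Cmpk2* was high in MA WT mouse 4 (7.69) and *Irgm1* was low in MA WT mouse 1 (10.89). *Egr3* was high in Young WT mouse 1 (5.33) and *Col3a1* low in Young WT mouse 4 (5.61). Both levels were below the lowest detected on those arrays (5.351 and 5.767).

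The step between ages differed between WT and Rage-/- (WT step minus Rage-/- step, limma) for 10 named genes in the model with surrogate variables. That model called 35 probes for this difference, while fits that blocked on BeadChip called 1 (fixed) and 0 (random). The signed difference was above 0 for *Pisd-ps3* (1.57), *P2ry1* (1.44) and *Lypd2* (1.26). The steps of *P2ry1* and *Lypd2* were called only in Rage-/-, where they were below 0 (-0.88 and -0.97). The signed difference was below 0 for *Vmn1r65* (-2.61), *Cd72* (-1.61), *Lgals3bp* (-1.61), *Tie1* (-1.51), *Ankrd23* (-1.52), *H2-Q5* (-1.15) and *Akap1* (-1.01).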

How the results depend on the processing

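Of 45 named genes called in WT, none reversed under any alternative run. The call was kept by 43 with log2 and quantile values, 44 with 7 surrogate variables, 36 with the authors' values, 32 of the 32 tested with detection in 75% of arrays, 27 without a filter, 25 without surrogate variables, 13 with a random and 5 with a fixed BeadChip block, 9 in a fit of the compared arrays only and 0 with the replicate block. Probes called in WT numbered 239, and 62 without surrogate variables, 16 in the compared arrays only, 12 with the fixed block, 16 with the random block, 0 with the fixed block without the linking array with fewest detected probes and 0 with the replicate block. Without a filter the WT split was 108 higher and 77 lower, against 92 and 147. Leaving out 1 mouse gave 129 (without Young WT 2) to 295 (without MA WT 4). Of 239 in Rage-/-, 359 were called with the authors' values, 38 without surrogate variables, 12 in the compared arrays, 1 with the fixed and 9 with the random block, 89 without a filter, 0 with the replicate block and 91 to 247 with 1 mouse left out. The 35 for the difference became 136 (authors' values), 97 (log2 and quantile), 1 (no surrogate variables), 90 (7 surrogate variables), 0 (compared arrays), 1 (fixed block), 0 (random block), 82 (no filter) and 7 to 132 with 1 mouse left out. Replicate numbers name different mice at each age. Same-numbered MA and Young WT mice correlated at -0.171, 0.153, 0.187 and 0.000555 in their deviations from the group means, and 1 of 4 MA mice correlated best with its own number. The cause of these shifts was not tested.

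Reversals were confined to uncalled genes. With the authors' values *Myh6* was 0.0562 and *Nppa* 0.0871. *Nppa* was 0.0478 without surrogate variables and in the compared arrays, and 0.28 with the replicate block, where *Myh6* was 0.0136. *Myh6* was 0.000489 without a filter, *Hprt* 0.22 with the fixed block and *Ankrd23* -0.00339 with 7 surrogate variables. With the fixed block without the linking array with fewest detected probes, *Ankrd23* was -0.0548, *Acta1* -0.14 and *Col1a1* -0.24. With 1 mouse left out, *Ankrd23* ran from -0.00877 to 0.20, *Myh6* from -0.0662 to 0.0179, *Nppa* from -0.367 to 0.0499 and *Col1a1* from -0.14 to 0.45. Dim probes carry the least signal over background, and 17 of the genes called lower were detected in no MA mouse.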
